A study of Homo sapiens with 6 samples.

Results

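The mitochondrial ribosomal protein genes of DU 145 cells are described here, before and after exposure to talazoparib. They were chosen by name: every gene of the deposited tables whose symbol starts with MRPL or MRPS followed by a digit, without pseudogenes and without symbols that hold a hyphen. The rule found 78 of 24305 gene symbols, 49 of them MRPL and 29 MRPS, and left out 7 hyphenated symbols and 0 pseudogenes. DU 145 is an established human prostate cancer line, and the series design uses it as a castration-resistant model deficient in homologous recombination repair. Talazoparib inhibits PARP1 and PARP2, enzymes that attach ADP-ribose chains at DNA breaks. RNA from 3 libraries labelled with talazoparib for 48 h was compared with RNA from 3 control libraries, whose label reads "DMOS" and names no other agent. The labels give no dose for the sequenced cells, and the series text names several. They describe both groups as the same cell line and name no genetic change. They do not say that the libraries came from separate cultures, so p-values measure the spread between libraries, which may be technical.

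The mitochondrial ribosome, or mitoribosome, makes the 13 proteins encoded by mitochondrial DNA, all of them subunits of the oxidative phosphorylation complexes. Its RNAs come from mitochondrial DNA, while every one of its proteins is encoded in the nucleus, made in the cytosol and imported. Its small subunit binds mRNA and reads the codons, and its large subunit forms the peptide bonds and sits at the inner membrane. Part of the proteins descend from those of the bacterial ribosome, and the others were added in mitochondria. Of the 78 genes, 51 encode large subunit proteins: the 49 MRPL genes with MRPS30 and MRPS18A, whose proteins sit in the large subunit despite their names. A further 26 encode small subunit proteins. MRPS36 was kept with no subunit, since its protein was later assigned to the oxoglutarate dehydrogenase complex.

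Promoters of genes that share motif letters belonged to genes that moved in opposite directions, and 4 of them are printed here. RefSeq windows from 250 bases before to 50 bases after the transcription start (GRCh38.p14) were matched by symbol for 69 of the 78 genes. They were searched on both strands for 5 motifs, and no window held matches of different motifs that shared a base. A gene was counted as holding a motif when any of its windows did, and 11 of the 69 had more than 1 window. The ETS core CCGGAAG, which GABPA and other ETS factors bind, was in 30 of the 69 genes (43.5%) and in 16.5% of 15843 protein-coding genes. The YY1 motif AAGATGGCG was in 13 (18.8%, against 3.21%), and the NRF1 motif GCGCNTGCG in 12 (17.4%, against 12.5%). The E-box CACGTG was in 9 (13.0%, against 10.9%) and the CCAAT box, CCAAT, in 23 (33.3%, against 42.1%). The printed pairs were chosen after their values were seen: the genes of each hold the same kind of match, and with talazoparib MRPS22 and MRPL36 fell while MRPS23 and MRPL22 rose. Each is written in the sense of its gene, with capitals marking ETS matches in the first pair and NRF1 and YY1 matches in the second. MRPS22 lies at chr3:139343744-139344043 on the plus strand, the first by position of 3 windows listed for the gene. MRPS23 lies at chr17:57849995-57850294 on the minus strand, MRPL22 at chr5:154940823-154941122 on the plus strand and MRPL36 at chr5:1799788-1800087 on the minus strand.
MRPS22: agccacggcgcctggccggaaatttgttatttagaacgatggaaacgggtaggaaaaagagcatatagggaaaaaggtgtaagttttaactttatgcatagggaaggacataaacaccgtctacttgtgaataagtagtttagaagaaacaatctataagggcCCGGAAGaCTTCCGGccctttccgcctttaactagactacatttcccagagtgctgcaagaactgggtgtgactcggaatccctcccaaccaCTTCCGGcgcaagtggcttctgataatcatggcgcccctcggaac
MRPS23: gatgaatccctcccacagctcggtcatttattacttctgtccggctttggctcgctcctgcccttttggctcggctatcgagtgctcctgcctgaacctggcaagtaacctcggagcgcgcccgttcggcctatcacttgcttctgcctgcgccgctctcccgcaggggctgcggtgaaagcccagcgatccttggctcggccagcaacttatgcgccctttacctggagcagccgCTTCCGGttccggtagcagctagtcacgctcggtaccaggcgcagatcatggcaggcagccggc
MRPL22: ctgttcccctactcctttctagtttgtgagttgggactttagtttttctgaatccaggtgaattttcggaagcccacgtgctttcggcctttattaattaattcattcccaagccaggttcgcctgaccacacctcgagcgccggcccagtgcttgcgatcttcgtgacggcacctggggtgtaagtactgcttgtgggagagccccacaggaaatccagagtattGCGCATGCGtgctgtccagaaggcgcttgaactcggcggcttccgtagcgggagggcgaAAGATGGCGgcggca
MRPL36: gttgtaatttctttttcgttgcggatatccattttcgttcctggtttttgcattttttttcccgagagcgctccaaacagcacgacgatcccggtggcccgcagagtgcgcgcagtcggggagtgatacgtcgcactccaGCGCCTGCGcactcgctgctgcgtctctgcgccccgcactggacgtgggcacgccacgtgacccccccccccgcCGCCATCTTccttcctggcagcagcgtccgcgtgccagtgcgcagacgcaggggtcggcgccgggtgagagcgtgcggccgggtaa
Positions count from the transcription start as 1, with -1 just before it. MRPS22 held 3 ETS matches, which began at -87, -79 and 6, and MRPS23 held 1, at -14. In MRPL22 the NRF1 match began at -24 and the YY1 match at 36. In MRPL36 the NRF1 match began at -110 and the YY1 match, on the opposite strand, at -36. Across the genes tested, 14 of 30 with an ETS match were called higher and 7 lower with talazoparib, against 17 and 7 of 38 without one. With an NRF1 match, 5 of 12 were called higher and 2 lower, against 26 and 12 of 56 without one, and with a YY1 match 4 and 4 of 12, against 27 and 10 of 56. Over all genes tested, 26.8% were called higher and 29.9% lower. In a fit that removed the trend over GC content and length, described below, ETS holders had 6 called higher and 11 lower and the others 8 and 12, against 22.0% and 22.2% of all genes. In the same fit, NRF1 holders had 5 and 4 of 12, against 9 and 19 of 56 without a match. YY1 holders had 2 and 2 of 12, against 12 and 21 of 56. A match is a run of letters, and binding of the factors was not measured.

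Base composition of the transcripts ran with the direction of change, and coding stretches of a GC-rich and an AT-rich gene are printed as examples. The first 120 coding bases of the longest coding exon, exon 2 in both, are given (GRCh38, GENCODE release 29): MRPL41 at chr9:137552082-137552201 on the plus strand, with 75.8% G or C, and MRPL47 at chr3:179602678-179602797 on the minus strand, with 33.3%. No part is capitalised.
MRPL41: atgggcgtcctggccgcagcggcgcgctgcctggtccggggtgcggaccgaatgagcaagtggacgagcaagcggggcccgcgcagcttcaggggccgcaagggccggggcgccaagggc
MRPL47: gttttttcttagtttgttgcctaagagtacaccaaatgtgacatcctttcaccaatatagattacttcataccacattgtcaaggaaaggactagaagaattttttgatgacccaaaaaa
MRPL41 rose with talazoparib and MRPL47 fell, with the values given below.

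The libraries held between 39123997 and 39585727 counts and detected between 18027 and 18344 genes each. All pairs of replicates differed by more than sampling noise. Control replicate 1 stood apart from the other controls: the chi-square per degree of freedom over genes was 27.2 and 20.4 against controls 2 and 3, which differed from each other by 5.17. Talazoparib replicates 2 and 3 differed by 31.4, the most of any pair within a group. Talazoparib replicate 1 differed from replicates 2 and 3 by 13.7 and 12.4. The keratins KRT8 and KRT18, epithelial markers, were at 583 ± 61.5 and 526 ± 70.0 CPM, counts scaled to a common library size (SD, n = 3), in controls. EPCAM and CDH1 were low, at 4.74 ± 0.480 and 1.37 ± 0.383 CPM, and none of the 4 epithelial markers passed the first test of this comparison. With the trend over GC content and length removed, KRT8 (log2 fold change -0.37) and KRT18 (-0.33) were called lower. Of markers of other cells, PTPRC and COL1A2 had 0 counts in every library, PECAM1 had 2 to 18 counts, and COL1A1 was at 2.55 ± 0.0738 CPM in controls and 2.54 ± 0.485 with talazoparib.

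Nearly all the genes were expressed, and their levels per length spanned 56.7-fold. Of the 78, 77 passed the filter on low counts. MRPS24, a small subunit protein with a bacterial counterpart, did not: it had 1, 5 and 2 counts in the controls and 3, 2 and 3 with talazoparib. Its exons overlap those of the readthrough gene URGCP-MRPS24 on the same strand, and how reads of such a pair were counted is not given in the sources used here. In controls the other genes had a median of 40.8 FPKM, fragments scaled to gene length and to the library's total, against 4.24 for all 14452 genes tested, with quartiles of 17.5 and 73.4 FPKM. Of the 77, 64 were above 10 FPKM and 8 above 100 FPKM.

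MRPL12, part of the stalk that recruits translation factors, was the highest at 231 ± 27.7 FPKM (SD, n = 3), followed by the small subunit gene MRPS34 at 169 ± 13.1 FPKM and the large subunit gene MRPL41 at 144 ± 12.7 FPKM. The lowest were MRPL42 at 4.07 ± 0.189 FPKM, MRPL23 at 4.08 ± 0.460 FPKM and MRPL35 at 5.86 ± 0.655 FPKM. Some neighbours in this order overlapped within their spread, as MRPL42 and MRPL23 did. Others did not: MRPL12 was above MRPS34, and MRPL35 above MRPL23, in every control. The FPKM of MRPL42 rests on a deposited length of 15560 nt, the longest of the genes, close to the 15582 nt of its longest GENCODE transcript. By CPM, which does not divide by length, MRPL42 was at 61.8 ± 1.71 CPM in controls. The deposited length was within 10% of the longest GENCODE transcript for 48 of the 78 genes and over 1.5 times it for 7. For 3 it was under the inverse of that limit. A longer length gives a lower FPKM from the same counts, so the places of MRPL41 (582 nt deposited, 1262 nt in GENCODE) and MRPL23 (3324 and 919 nt) in this order depend on the length used.

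**Figure D1:**
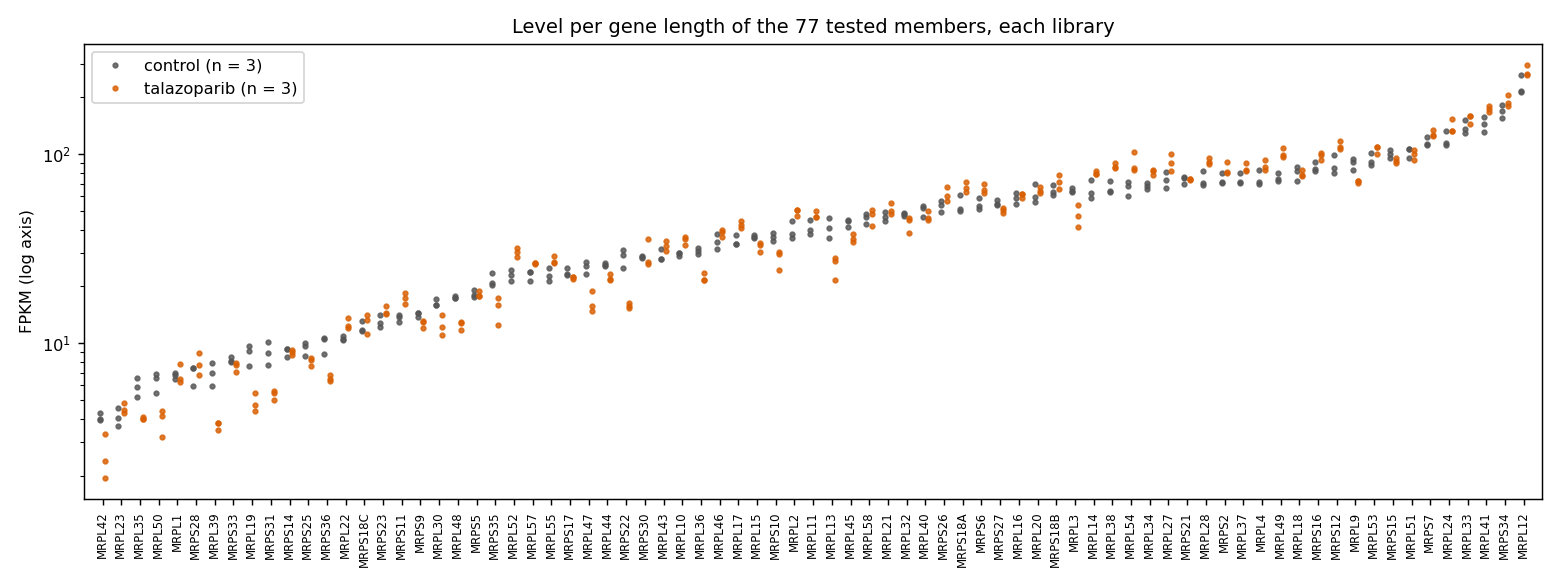
FPKM of the 77 tested mitochondrial ribosomal protein genes in each library (log axis), ordered by the control mean, with grey points for 3 control and orange points for 3 talazoparib libraries. Levels run from 4.07 FPKM for MRPL42 to 231 FPKM for MRPL12 in the control mean, and for most genes the distance between groups is small beside the distance between genes.

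With talazoparib the genes moved by small amounts and in both directions. By edgeR's quasi-likelihood test, adjusted over all genes, 33 of the 77 rose (42.9%), 17 fell (22.1%) and 27 did not pass. Over all 14452 genes tested, 26.8% were called higher and 29.9% lower. The median log2 fold change of the 77 was 0.15, against 0.00 for all genes. Their quartiles were -0.16 and 0.30, narrower than the -0.51 and 0.35 of all genes, and their range was -0.84 to 0.51. None was called at 2-fold or more, as 12.5% of all genes were. Between the groups, 49 of the 77 showed no overlap, of which 30 were higher and 19 lower with talazoparib, while 64.4% of all genes tested showed no overlap. In bulk RNA, fewer cells of a type and less RNA per cell cannot be told apart.

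The number of genes called higher changed with the library left out. It was 13 without control replicate 2 or without control replicate 3, 20 without talazoparib replicate 2 and 35 without control replicate 1. The number called lower stayed between 15 and 19. Summed over all the genes, control replicate 1 had 5762 CPM, within the 5718 to 6212 CPM of the talazoparib libraries, while controls 2 and 3 had 4977 and 5261 CPM. The genes took 0.523% to 0.593% of all counts in a library, and large subunit genes had 1.80 to 1.88 times the summed CPM of small subunit genes, with the groups overlapping in both measures. Scaled to total counts in place of the trimmed mean, 25 were called higher and 21 lower, with a median of 0.08 for these genes and -0.07 for all genes. Shares of all genes called with a library left out, or with this scaling, are not given here. The counts under these settings therefore do not set the genes apart from others.

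**Figure D2:**
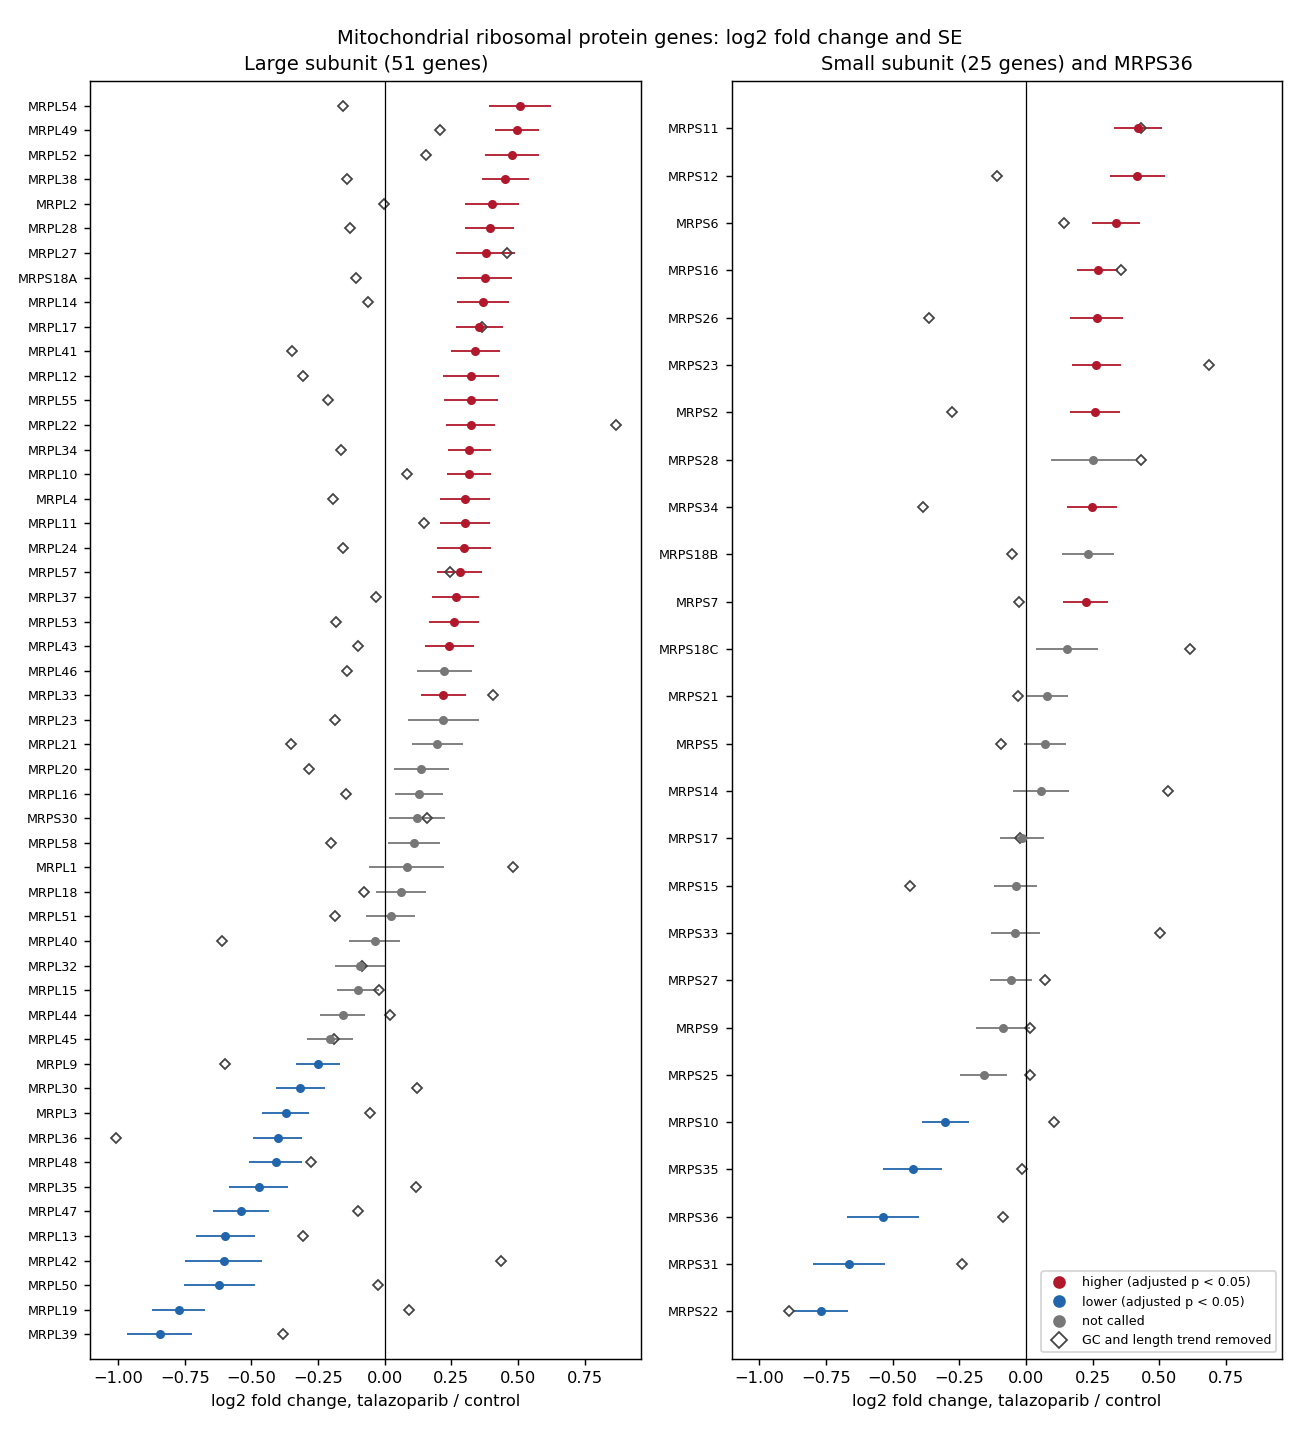
Log2 fold change of talazoparib over control for each tested gene, with its standard error, for 51 large subunit genes (left) and 25 small subunit genes with MRPS36 (right). Filled points are coloured by the edgeR call, and open diamonds give the same gene after the trend over GC content and length was removed. The filled points run from -0.84 for MRPL39 to 0.51 for MRPL54, and many diamonds lie on the other side of 0.

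In the large subunit, 24 of 51 genes rose and 12 fell, with a median log2 fold change of 0.22. MRPL49, a mitochondria-specific protein, was at 161, 140.0 and 146 CPM in control replicates 1 to 3 and at 206, 228 and 196 CPM with talazoparib. All 3 talazoparib libraries were above all controls, and the log2 fold change was 0.50 (SE 0.08, edgeR adjusted p = 0.000356). MRPL54, also specific to mitochondria, was at 43.7, 34.8 and 40.2 CPM in controls and at 51.6, 65.5 and 51.6 CPM with talazoparib. Its talazoparib replicate 2 was the highest library, and its log2 fold change of 0.51 (SE 0.12, edgeR adjusted p = 0.00273) was the largest rise among the 77 genes. MRPL17, the counterpart of bacterial ribosomal protein L17, was at 87.0, 73.6 and 75.1 CPM in controls and at 100.4, 107 and 93.5 CPM with talazoparib, a log2 fold change of 0.35 (SE 0.09, edgeR adjusted p = 0.0047). Control replicate 1 was the highest control for all 3 of these genes. The mitochondria-specific MRPL52 (0.48) and MRPL38 (0.45) and MRPL28 (0.39), which has a bacterial counterpart, also rose without overlap between the groups.

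Proteins L10, L11 and L12 form or anchor the stalk of the large subunit, where translation factors dock, and the genes of all 3 rose by similar amounts. MRPL10 rose from 58.5 ± 2.88 to 72.9 ± 4.26 CPM (SD, n = 3), MRPL11 from 95.7 ± 11.7 to 118 ± 7.88 CPM and MRPL12 from 228 ± 33.6 to 285 ± 25.9 CPM. Their log2 fold changes were 0.32, 0.30 and 0.32. The call of MRPL10 held with each library left out. Those of MRPL11 and MRPL12 were lost without control replicate 2 (edgeR adjusted p = 0.105 and 0.116), control replicate 3 (0.101 and 0.123) or talazoparib replicate 2 (log2 fold change 0.25 for both).

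The largest fall was that of MRPL39, a mitochondria-specific large subunit protein. It was at 19.5, 21.6 and 25.01 CPM in controls and at 12.7, 11.9 and 12.3 CPM with talazoparib, a log2 fold change of -0.84 (SE 0.12, edgeR adjusted p = 0.000125). The lowest control was well above the highest talazoparib library. MRPL19, the counterpart of bacterial L19, was at 59.5, 71.8 and 68.8 CPM in controls and at 38.3, 36.1 and 42.7 CPM with talazoparib, with no overlap and a log2 fold change of -0.77 (SE 0.10, edgeR adjusted p = 5.44e-05). MRPL13 (-0.60), MRPL50 (-0.62) and MRPL47 (-0.54) also fell without overlap, MRPL47 from 33.5 ± 1.58 to 23.0 ± 2.42 CPM. MRPL41, whose coding stretch is printed above with that of MRPL47, rose from 82.1 ± 9.39 to 104 ± 5.15 CPM, a log2 fold change of 0.34. MRPL36, a small protein with a bacterial counterpart, was at 39.6, 34.8 and 36.7 CPM in controls and at 27.3, 28.0 and 28.9 CPM with talazoparib. Its groups did not overlap, and its log2 fold change was -0.40 (SE 0.09, edgeR adjusted p = 0.00275).

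In the small subunit, 9 of 25 genes tested rose and 4 fell, with a median of 0.08. MRPS22, a mitochondria-specific protein whose mutation causes human mitochondrial disease, was at 35.5, 39.2 and 42.8 CPM in controls and at 23.0, 24.1 and 21.8 CPM with talazoparib. Every control lay above every talazoparib library, and the log2 fold change was -0.77 (SE 0.10, edgeR adjusted p = 6.76e-05). MRPS31, also specific to mitochondria, fell from 12.9 ± 1.61 to 8.16 ± 0.376 CPM, a log2 fold change of -0.66. MRPS11, the counterpart of bacterial S11, was at 69.2, 60.5 and 65.4 CPM in controls and at 87.4, 94.97 and 78.9 CPM with talazoparib. Its groups did not overlap, and its log2 fold change was 0.42 (SE 0.09, edgeR adjusted p = 0.00175). MRPS12, whose bacterial counterpart helps read the codon in the decoding centre, rose from 106 ± 15.3 to 141 ± 10.7 CPM, also a log2 fold change of 0.42.

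Human cells have 3 genes related to bacterial S18, and MRPS18A, whose protein sits in the large subunit, passed the test in this fit, while in the second fit described below MRPS18C did instead. MRPS18A rose from 73.6 ± 10.2 to 95.5 ± 7.497 CPM (log2 fold change 0.38, SE 0.10, edgeR adjusted p = 0.00777), a call lost without control replicate 2 or 3 (adjusted p = 0.0575 and 0.0643). MRPS18B was at 120.3 ± 11.2 and 141 ± 15.8 CPM (0.23, adjusted p = 0.056) and passed without control replicate 1 (0.0221) or talazoparib replicate 3 (0.0140). MRPS18C was at 18.4 ± 1.19 and 20.4 ± 2.12 CPM (0.15, adjusted p = 0.281). Whether the 3 genes differ from each other in response was not tested. MRPS30, a large subunit protein, was at 47.7, 45.2 and 45.3 CPM in controls and at 46.0, 45.2 and 59.0 CPM with talazoparib, so that only talazoparib replicate 3 was above the controls. Its log2 fold change of 0.12 was not called (edgeR adjusted p = 0.351) and was -0.01 without that library. MRPL58, a peptidyl-tRNA hydrolase that frees stalled ribosomes, was not called either, at 49.0 ± 4.47 and 52.9 ± 4.82 CPM. MRPS36, the gene with no subunit, fell from 12.8 ± 1.60 to 8.82 ± 0.494 CPM (log2 fold change -0.54, edgeR adjusted p = 0.00513).

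Split by origin instead of subunit, 20 of 45 genes with a bacterial counterpart rose and 9 fell (median 0.20), and 13 of 31 mitochondria-specific genes rose and 7 fell (median 0.12). With the trend over GC content and length removed, as described below for all the genes, the same groups had 10 called higher and 13 lower (median -0.03) and 5 and 12 (median -0.11).

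**Figure D3:**
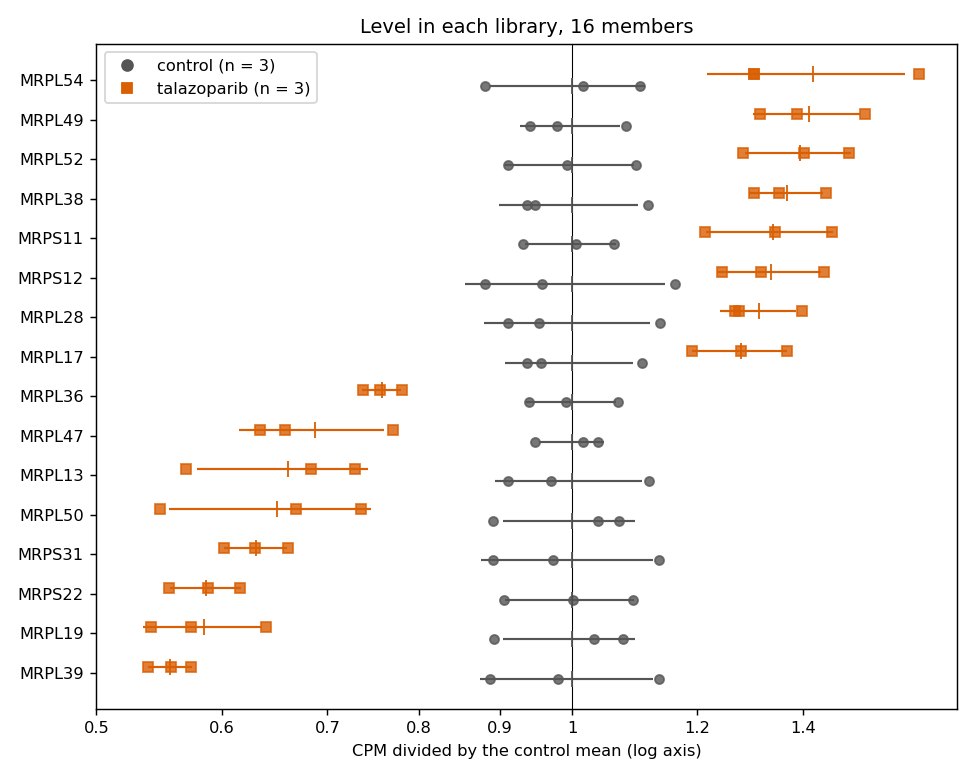
CPM of 16 genes in each library divided by the gene's control mean (log axis), for the 8 genes called higher and the 8 called lower with the smallest adjusted p and no overlap between the groups. Grey circles are control and orange squares talazoparib libraries, and the ticks and bars give the mean and SD (n = 3 each). By the rule for showing them, the groups do not overlap for any of the 16, with log2 fold changes from 0.35 to 0.51 above and from -0.40 to -0.84 below.

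Which genes rose and which fell ran with the base composition of their transcripts, as it did over all genes. GC content of the longest GENCODE transcript ran from 35.0% to 71.9% over the 78 genes, and its median over the 77 tested was 48.9%, near the 49.4% of all genes. Their deposited lengths were shorter, with a median of 1550 nt against 3916 nt. Of the 20 genes above 55% GC, 16 rose and 1 fell, and of the 23 at or under 45%, 4 rose and 13 fell. The 34 genes between these limits had 13 rises and 3 falls. Over all genes tested with GC content and length, 59.6% were called higher and 2.34% lower above 55% GC, and 2.89% higher and 63.3% lower at or under 45%. Between these limits, 21.7% of all genes were called higher and 25.2% lower, against 38.2% and 8.82% of the 34 genes. The medians there were 0.00 for all genes and 0.12 for the 34. The median log2 fold change was -0.32 for the mitochondrial ribosomal protein genes at or under 45% GC and -0.60 for all such genes, and above 55% it was 0.32 and 0.37. Across the 77 genes, which share the same 6 libraries, log2 fold change and GC content had a Pearson r of 0.59 and a Spearman rho of 0.62, and across 13718 genes 0.63 and 0.69. Whether a response of the cells or a difference between the libraries gives this trend cannot be told apart in this design.

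A second fit removed the trend over GC content and length from each library before testing, over 13718 genes, of which 22.0% were then called higher and 22.2% lower. In it, 15 of the 77 mitochondrial ribosomal protein genes were called higher and 25 lower, with a median of -0.06. The large subunit had 8 higher and 20 lower (median -0.10) and the small subunit 7 and 5 (median -0.02). The call turned from higher to lower for 12 of the 77 genes (15.6%) and from lower to higher for 1 (1.30%), against 2.06% and 1.87% of all genes. From higher to lower it also turned for 13 of 77 cytosolic ribosomal protein genes and 4 of 38 nuclear complex I genes. Among the 12 mitochondrial ribosomal protein genes were MRPS34 (0.25 to -0.38), MRPS26 (0.26 to -0.36), MRPL41 (0.34 to -0.35) and MRPL12 (0.32 to -0.31). The 1 that turned to higher was MRPL42 (-0.60 to 0.44). MRPL38 (0.45 to -0.14) and MRPL28 (0.39 to -0.13) turned as well. MRPL54 went from 0.51 to -0.16, MRPS12 from 0.42 to -0.11, MRPS18A from 0.38 to -0.11 and MRPL19 from -0.77 to 0.09, none of them called in the second fit. Among the fallers, MRPL47 went from -0.54 to -0.10, MRPL50 from -0.62 to -0.03, MRPS31 from -0.66 to -0.24 and MRPS36 from -0.54 to -0.09, and all 4 lost the call. Of the other stalk genes, MRPL10 (0.08) and MRPL11 (0.15) were not called in it. MRPS18C, not called in the first fit, was called higher in the second (0.61), and MRPL58 was called lower (-0.20). In this fit the genes' log2 fold changes ran against GC content, with r = -0.54 over the 77, though over all genes r was 0.01. Above 55% GC, 0 of 20 were then called higher and 13 lower, and at or under 45%, 10 of 23 were higher and 2 lower. Over all genes of this fit above 55% GC, 792 of 4478 were called higher and 877 lower. At or under 45%, 1198 of 4736 were higher and 1158 lower.

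When GC content and length were removed jointly, as a surface instead of a sum, 12 of the 77 genes were called higher and 22 lower, against 21.0% and 21.6% of all genes, the median was -0.04 and r with GC content was -0.30. With log2 length, r over the 77 was -0.34 in the first fit, 0.38 in the second and 0.45 with the surface removed. In the second fit, the 27 shortest genes had 4 called higher and 15 lower, and the 25 genes above 2000 nt had 10 and 2. Over all genes of this fit in the same length class as those 27, 164 of 1054 were called higher and 244 lower. Above 2000 nt, 2597 of 11243 were higher and 2479 lower.

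**Figure D4:**
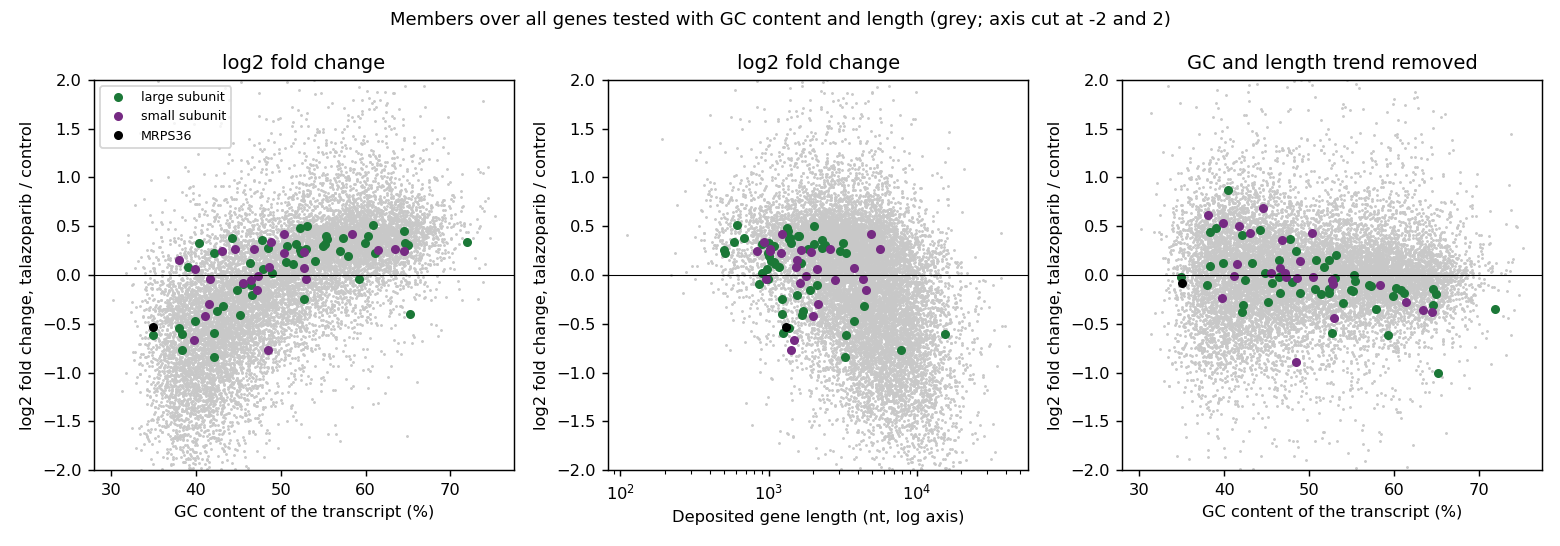
Log2 fold change of each gene against GC content (left) and deposited length (middle, log axis), and after the trend over both was removed against GC content (right). Grey points are all genes tested with both values, with the vertical axis limited at 2 on either side of 0, and coloured points are the mitochondrial ribosomal protein genes by subunit. The coloured points climb with GC content on the left (r = 0.59) and descend on the right (r = -0.54).

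Called the same way in both fits were 9 of the 77 genes that rose (11.7%) and 6 that fell (7.79%), against 11.4% and 14.8% of all genes. The share of risers is near that of all genes and the share of fallers is below it. The risers were MRPL17, MRPL22, MRPL27, MRPL33, MRPL49, MRPL57, MRPS11, MRPS16 and MRPS23, and the fallers MRPL9, MRPL13, MRPL36, MRPL39, MRPL48 and MRPS22. Of the 9 risers, 7 have a deposited length above 2000 nt, and of the 6 fallers 1 does. Above that length are 25 of the 77 genes and 11243 of the 13718 genes of the second fit. In the joint fit all 15 of the kept genes were again called the same way, except MRPL27 and MRPL33. Those outside the 31 genes named by rule were picked out after their values were seen. MRPL22, whose bacterial counterpart lines the exit tunnel of the large subunit, was at 33.4, 32.0 and 33.6 CPM in controls and at 39.5, 45.1 and 39.2 CPM with talazoparib, with no overlap. Its log2 fold change was 0.32 in the first fit and 0.87 in the second (edgeR adjusted p = 0.0094 and 0.0011), and its first call was lost without control replicate 2 (log2 fold change 0.25). MRPS23, a mitochondria-specific protein, was at 79.5, 64.9 and 69.6 CPM in controls and at 82.7, 92.8 and 81.6 CPM with talazoparib. Control replicate 1 came close to the talazoparib libraries, and the log2 fold changes were 0.26 and 0.69 (edgeR adjusted p = 0.028 and 0.00246). The first call of MRPS23 was lost without control replicate 2, control replicate 3, talazoparib replicate 1 or talazoparib replicate 2, with log2 fold changes down to 0.17.

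MRPS22 and MRPL36, the partners of these genes among the printed promoters, stayed lower. MRPS22 was at -0.77 in the first fit and -0.89 in the second (edgeR adjusted p = 1.91e-05), and MRPL36 at -0.40 and -1.01 (edgeR adjusted p = 1.99e-06). MRPL36, at 65.2% GC, was the 1 gene above 55% GC that fell in the first fit. MRPL9, with a bacterial counterpart, was at 116, 96.7 and 108 CPM in controls and at 88.5, 92.6 and 88.4 CPM with talazoparib, -0.25 and -0.60 in the fits. Its first call was lost without talazoparib replicate 1. Other kept genes were closer to 0 in the second fit: MRPL39 went from -0.84 to -0.38, MRPL13 from -0.60 to -0.31 and MRPL49 from 0.50 to 0.21. MRPL48, a mitochondria-specific protein, fell from 28.7 ± 0.488 to 21.6 ± 1.61 CPM, -0.41 and -0.28. Of the 33 genes called higher, 12 kept the call with each library left out in turn, and of the 17 called lower 15 did. Called that way in the second fit as well were MRPL17, MRPL49 and MRPS11 among the risers and MRPL13, MRPL36, MRPL39, MRPL48 and MRPS22 among the fallers. The share of all called genes that kept their call with each library left out is not given here. These counts therefore do not set the genes apart from others.

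Reads of many of these genes can be confused with those of others. Exons of 41 of the 78 overlap another annotated gene, 16 on the same strand and 29 on the opposite strand, and the strand setting of the counting is not given in the sources used here. MRPS22 (chr3:139005806-139357223, plus strand, by its widest GENCODE model) is one of these, with COPB2 and PRR23A on the opposite strand. MRPL49 overlaps FAU and SYVN1, MRPL9 overlaps OAZ3, MRPL13 overlaps MTBP, MRPL19 overlaps GCFC2 and MRPL47 overlaps ACTL6A, all on the opposite strand. MRPL9 also overlaps an unnamed gene model on its own strand. MRPL17, MRPL36, MRPL39, MRPL48, MRPL54 and MRPL22 overlap none, though MRPL48 and MRPL22 each have 1 pseudogene annotated under their name. Of the 37 genes tested without an overlap, 14 were called higher and 10 lower in the first fit and 7 and 13 in the second. Pseudogenes named after 34 of the 78 genes are annotated, up to 8 for 1 gene, and counts of such genes are uncertain where the copies share reads.

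The other proteins and factors that build and serve the mitoribosome were taken from lists chosen by function. Of 5 mitoribosome proteins with other names, the large subunit protein GADD45GIP1 rose from 97.2 ± 10.9 to 134 ± 9.96 CPM and the small subunit protein AURKAIP1 from 127 ± 15.7 to 165 ± 3.25 CPM, and PTCD3, also of the small subunit, fell from 54.2 ± 7.36 to 31.3 ± 0.587 CPM. DAP3 (log2 fold change 0.15) and CHCHD1 (0.08) were not called. In the second fit AURKAIP1 was called lower (-0.20), DAP3 higher (0.27) and the other 3 not. Of 25 assembly and rRNA modification factors, 12 rose and 5 fell (median 0.19), and 5 and 4 were called in the second fit. NGRN, needed for stability of the large rRNA, rose from 201 ± 11.6 to 256 ± 6.44 CPM, and DHX30, an RNA helicase, from 226 ± 13.8 to 289 ± 14.1 CPM. FASTKD2, an RNA-binding protein of mitochondrial RNA granules, fell from 20.8 ± 1.89 to 10.5 ± 1.41 CPM and MTERF3, of the mitochondrial termination factor family, from 17.3 ± 2.67 to 10.3 ± 0.480 CPM. Of these 4, NGRN (0.40) and MTERF3 (-0.35) kept their calls in the second fit.

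Among 15 translation factors, 3 rose and 7 fell, with a median of -0.17. The recycling factor MRRF had the largest fall, from 40.8 ± 2.92 to 16.7 ± 0.599 CPM, a log2 fold change of -1.29, and the elongation factor GFM1 fell from 58.0 ± 4.64 to 29.7 ± 1.89 CPM. TUFM, the elongation factor that delivers tRNAs, rose from 420 ± 45.1 to 525 ± 34.9 CPM, and PDF, which removes the formyl group, from 7.36 ± 0.557 to 10.5 ± 1.25 CPM. In the second fit 2 of the 15 were called higher, neither of them called in the first, and 4 lower, MRRF and GFM1 among the latter, while TUFM and PDF were not called. Of 14 genes of mitochondrial transcription and RNA handling, 3 rose and 10 fell (median -0.53), and 2 and 7 were called higher and lower in the second fit. The 2 called higher there, TFAM (-0.38 to 0.29) and PRORP (-0.35 to 0.34), had both been called lower, and POLRMT (0.20 to -0.21) turned from higher to lower. LRPPRC, which stabilises mitochondrial mRNAs, fell from 191 ± 35.3 to 78.1 ± 7.20 CPM, and TFB2M, a transcription initiation factor, from 18.5 ± 1.98 to 9.60 ± 0.506 CPM. HSD17B10, part of the mitochondrial RNase P, rose from 89.97 ± 9.497 to 127 ± 10.2 CPM and the tRNA-processing enzyme ELAC2 from 254 ± 15.5 to 305 ± 27.7 CPM. LRPPRC (-0.64) and TFB2M (-0.59) kept their calls in the second fit, and HSD17B10 and ELAC2 did not.

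The regulators included genes for factors of the ETS, YY1 and NRF1 motifs. Of 9 nuclear regulators, 8 were tested, 1 rose and 5 fell, and PPARGC1A had 0 counts in every library. GABPA, the DNA-binding part of an ETS factor known for respiratory genes, fell from 16.2 ± 0.868 to 6.17 ± 1.34 CPM, and YY1 from 238 ± 4.16 to 179 ± 29.1 CPM. The other fallers were PPARGC1B (log2 fold change -0.81), GABPB1 (-0.73) and MYC (-0.22). NRF1 was not called, at 28.6 ± 2.54 and 29.7 ± 1.16 CPM (log2 fold change 0.06, edgeR adjusted p = 0.658). ESRRA, an orphan nuclear receptor, rose from 91.2 ± 9.76 to 140.1 ± 9.58 CPM. GABPA (-0.68), PPARGC1B (-0.45), MYC (-0.39) and ESRRA (0.20) kept their calls in the second fit, and YY1 and GABPB1 did not. Any link between these levels and the mitochondrial ribosomal protein genes was not tested.

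The mRNAs that the mitoribosome translates took 9.82% to 10.2% of counts in the controls and 8.11% to 9.21% with talazoparib, without overlap. Of the 13, ND3 rose from 2507 ± 274 to 3482 ± 156 CPM, and 3 fell: ND5 from 4031 ± 29.2 to 3067 ± 307 CPM, ND4 from 15234 ± 289 to 11951 ± 888 CPM, and ND4L. The median log2 fold change of the 13 was -0.05. The mitochondrial rRNAs were not analysed here, and GC content was matched for none of the 13.

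Beside these, 43 of 77 cytosolic ribosomal protein genes rose and 6 fell (median 0.24), as did 22 and 1 of 38 nuclear complex I genes (median 0.29). Of the 77 mitochondrial ribosomal protein genes, 33 rose and 17 fell in the same fit. In the second fit the cytosolic genes had 29 called higher and 25 lower (median 0.01) and the complex I genes 16 and 6 (median 0.06), against 15 and 25 for the mitochondrial ribosomal protein genes (median -0.06). Differences between these gene groups were not tested.

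**Figure D5:**
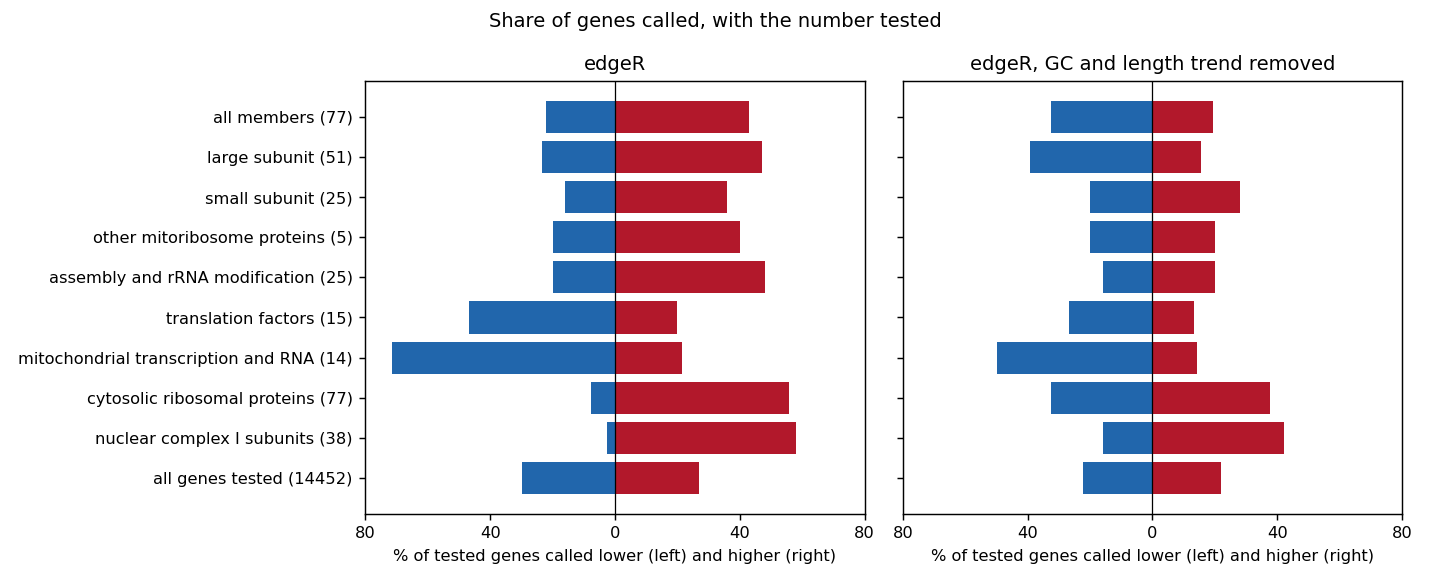
Share of tested genes called lower (blue, left of 0) and higher (red, right of 0) in each gene group, by the first edgeR fit and with the trend over GC content and length removed. Numbers tested stand beside the groups, and all genes in the right panel are 13718. Of the mitochondrial ribosomal protein genes, the first fit called 42.9% higher and 22.1% lower, while the second has the longer bar on the lower side.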

How the data were processed

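Per the submitters' processing notes, reads were handled with Trimmomatic, HISAT2, Cufflinks and HTSeq on GRCh38; neither versions, nor an annotation, nor a strand setting was named. The authors deposited whole-number counts per gene for 6 libraries, and FPKM values that the authors had divided by gene length and total count. Lengths recovered from the deposited FPKM table were whole within 0.01 nt for 99.95% of 21065 genes with a count. The control label was read as a misspelt solvent.

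The counts went into edgeR 4.0.16 (R 4.3.3) with filterByExpr at a minimum of 10, TMM scaling, a robust quasi-likelihood fit and Benjamini-Hochberg adjustment over all genes at 0.05. CPM uses TMM-scaled library sizes. Each SE was the size of the log2 fold change over the root of its F statistic. GC content comes from the longest GENCODE release 29 transcript, and the trend-removed fit used natural splines of 5 degrees of freedom for GC content and log2 length as an offset in each library. It covers 94.9% of genes tested. The joint surface, with 3 degrees of freedom each, was added after seeing the data. The scripts were tested on simulated data.

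The genes and lists were chosen with earlier results of these data known. Named by rule were up to 8 genes a direction with the smallest adjusted p and no overlap, the stalk and S18 genes, MRPS30, MRPL58, MRPS12, MRPS36, the 3 highest and 3 lowest in control FPKM, up to 4 a direction whose call turned in the trend-removed fit, and up to 2 a direction in other lists. For the cytosolic ribosomal protein and complex I lists counts and medians alone are given. DESeq2 1.42.0, limma 3.58.1 on log2 FPKM with pseudocounts of 1 and 0.1, other scalings and filters, a replicate block and leaving out single libraries served as alternatives. The list of prostate luminal markers is not reported here.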

Additional observations from a re-analysis of the deposited data

How the results depend on the processing

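The counts are per gene and cover the libraries given here, and 3 libraries a group limit the precision. The 31 genes named by rule gave 558 values under 18 alternatives: 424 kept their direction and side of the threshold, 60 lost the call, 10 gained it and 64 reversed. All but 1 of the reversals came with a removed trend of GC content, length or both, and the cause was not tested. The exception was MRPS30, at -0.013 without talazoparib replicate 3 and up to 0.19 with another library left out.

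With each library left out in turn, 13 to 35 genes were called higher and 15 to 19 lower, with a median of 0.08 to 0.18. Large subunit genes called higher ranged from 11 to 25 and lower from 10 to 13, and small subunit genes from 2 to 10 and from 4 to 5. The lowest counts of higher calls came without control replicate 2 or 3. Shares of all genes called with a library left out are not given here. With the replicate number as a block, 27 genes were called higher and 16 lower. Same-numbered libraries had correlations of -0.09, -0.17 and 0.00 in their deviations from the group means. With deviations taken over 3 libraries a group, these values cannot show whether the numbers pair the libraries, and the labels do not say.

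DESeq2, its size factors in edgeR and the absence of a filter gave 33 or 34 higher and 17 lower. Small subunit genes called higher fell to 4 with total-count scaling and with limma on log2 FPKM at either pseudocount, where the median over all the genes was 0.071 (pseudocount 1) and 0.075 (pseudocount 0.1). With the GC and length trend removed, with or without the replicate block, 15 genes were called higher, 8 of them in the large subunit, and the median was -0.063 or, with the block, -0.060. Large subunit genes called lower were then 20 without the block. With GC content alone removed, 6 were called lower, and the large subunit had 11 higher and 3 lower. With length alone removed, 4 were higher, 2 in each subunit, 7 small subunit genes were lower and the median was -0.10. With the joint surface removed, an alternative chosen after seeing the data, 12 were higher, 6 of them in the large subunit, 7 small subunit genes were lower and the median was -0.042.

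Reversed values were as follows, with GC and length removed, with the replicate block in the same fit, and with the surface removed. MRPL38 was at -0.14, -0.14 and -0.042, MRPL54 at -0.16, -0.16 and -0.022, MRPL28 at -0.13, -0.13 and -0.080, and MRPS12 at -0.11, -0.11 and -0.047. MRPL19 was at 0.090, 0.087 and 0.13, MRPL12 at -0.31, -0.31 and -0.18, and MRPS18A at -0.11, -0.11 and -0.062. MRPS18B was at -0.051, -0.053 and -0.016, MRPL58 at -0.20, -0.20 and -0.16, and MRPS34 at -0.38, -0.39 and -0.26. MRPL41 was at -0.35, -0.35 and -0.15, MRPL42 at 0.44, 0.44 and 0.45, and MRPL23 at -0.19, -0.18 and -0.20. MRPL35 was at 0.12, 0.11 and 0.075, and MRPS26 at -0.36, -0.37 and -0.25. With GC content alone removed, MRPL47 was at 0.21, MRPS31 at 0.047, MRPL50 at 0.14, MRPS36 at 0.24, MRPL12 at -0.12, MRPS34 at -0.20, MRPL41 at -0.13, MRPL42 at 0.11, MRPL23 at -0.18, MRPL35 at 0.24 and MRPS26 at -0.17. With length alone removed, MRPS18C was at -0.094, MRPS30 at -0.11, MRPL58 at -0.20, MRPS34 at -0.074, MRPL41 at -0.044, MRPL42 at 0.11 and MRPS26 at -0.060.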
